A study of Mus musculus with 36 samples.

Results

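The tibialis anterior, the large fast muscle at the front of the shin, was profiled in mice at 7 and at 10 months of age, and the comparison described here is 10 against 7 months in that muscle. It was made on 8 of the 36 arrays of the study, 4 at each age. The 8 arrays were chosen from the labels by muscle alone. No measured value entered that rule, but the comparison was chosen with earlier results of these data known. Each age held 2 arrays of wild-type muscle and 2 of muscle transgenic for alpha tropomyosin slow, a mouse model of nemaline myopathy. The groups were thus wild type at 7 months, wild type at 10 months, transgenic at 7 months and transgenic at 10 months, with arrays numbered 1 and 2 in each. All tissue was snap frozen, and each array carried RNA pooled from 3 to 5 mice. The sources used here give neither the strain and sex of these mice nor the promoter and form of the transgene. The labels do not say that arrays 1 and 2 of a group came from separate pools. The p-values below therefore reflect array-to-array spread alone, part or all of which may be technical.

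Skeletal muscle fibres differ in the myosin, troponin and tropomyosin isoforms they carry. The tibialis anterior of the mouse is built mostly of fast fibres, which contract quickly and tire early, with few slow fibres. Nemaline myopathy is a muscle disease named for rod-shaped deposits of thin filament and Z-disc protein, and slow alpha tropomyosin, the product of Tpm3, is one of the thin filament proteins whose mutation causes it. In ageing rodents, muscle is known to lose fibre mass and innervation late in life. Both ages studied here are adult.

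Values are signal intensities from Affymetrix MG_U74Av2 arrays after scaling of each array to a trimmed mean of 500. Of 12488 probe sets, 7954 reached a signal of 100 on at least 4 of the 8 arrays and were tested, and they named 5981 genes. Between 60.2 and 67.0% of probe sets reached 100 on an array, and the 3' to 5' ratio of Gapdh, a sign of RNA integrity, lay between 0.94 and 1.22. Log2 signals correlated at 0.83 to 0.935 within groups and at 0.81 to 0.949 between groups. The replicate 2 array of wild type at 10 months had the lowest correlations. Markers of fast fibres were bright, as in a fast muscle. On the 8 arrays Myh4, the fastest myosin heavy chain, read 32935 to 58637, Pvalb, the calcium buffer parvalbumin, read 39877 to 61462, and Actn3, the fast fibre alpha-actinin, read 25410 to 36248. These markers do not set the muscle apart from gastrocnemius. In wild type they averaged 49924, 54295 and 30702 in tibialis anterior against 47863, 53280 and 36928 in gastrocnemius. The slow markers were low in wild type. Myh7 averaged 390 in wild-type tibialis anterior against 18371 in wild-type gastrocnemius, and Myl2 averaged 569 against 20102. Of the transgene itself no separate check was possible, since it is not given whether the Tpm3 probe set reads it.

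No gene passed the test for a difference between 10 and 7 months. With genotype and replicate number in the model, 0 of 7954 probe sets (0%) had a Benjamini-Hochberg adjusted p under 0.05 in limma, and the lowest adjusted p was 0.999. At an unadjusted p under 0.05 there were 270 probe sets (3.39%), 167 higher (2.1%) and 103 lower (1.29%) at 10 months, fewer than the 5% that an even spread of p-values holds. In 86 probe sets (1.08%) the 4 arrays of one age did not overlap with the 4 of the other, 52 of them higher (0.654%) and 34 lower (0.427%) at 10 months. All 4 pairs of arrays of the same genotype and replicate number were higher at 10 months in 528 probe sets (6.64%) and lower in 418 (5.26%). In 33 probe sets (0.415%) the log2 change went beyond 2-fold. The median standard error of a log2 change was 0.25 and the median half-width of its 95% interval was 0.54, which is 1.45-fold. This interval is not adjusted for the number of probe sets, and the adjusted test needs larger differences: all 33 probe sets beyond 2-fold missed its threshold. A count of 0 does not show that the ages are alike.

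The other terms of the same model gave calls on the same arrays. Genotype had 9 calls (0.113%) and 748 probe sets at an unadjusted p under 0.05. The replicate number had 716 calls (9%) and 2247 probe sets (28.2%) at that level. The median absolute log2 change was 0.16 for age, 0.22 for genotype and 0.34 for the replicate number. Over the tested probe sets, age took 9% of the variance of the 8 arrays, genotype 15.4% and the replicate number 35%. The first principal component held 43.1% of the variance. On it the 4 replicate 1 arrays lay between -32.37 and -16.17 and the 4 replicate 2 arrays between -0.14 and 46.23, while 7-month and 10-month arrays were interspersed.

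**Figure D1:**
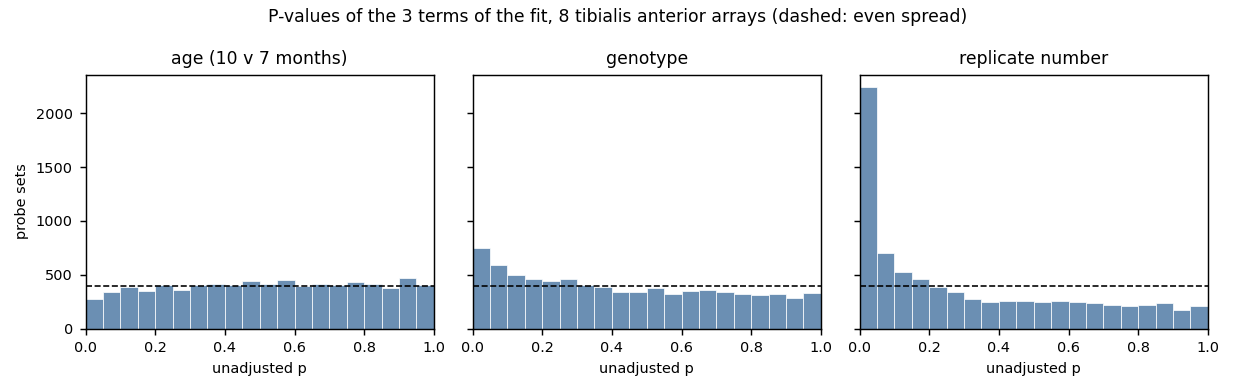
Histograms of unadjusted p-values (x axis, bins of 0.05; y axis, number of probe sets) for age, genotype and replicate number in the model of the 8 tibialis anterior arrays, over 7954 probe sets. The dashed line is an even spread. The lowest bin holds 270 probe sets for age, 748 for genotype and 2247 for replicate number.

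Scan records were filled for the 4 replicate 1 arrays and empty for the replicate 2 arrays. The 4 recorded arrays were scanned on 4 different days and came from 3 chip lots, 1 lot at 7 months and 2 at 10 months, with 0 lots shared between the ages. The ages also shared 0 scan operators. Among these arrays age cannot be told apart from chip lot or operator. Since each scan day holds 1 array, no value within a scan day can be had. For the genes that the results turn on, the values of the replicate 1 and replicate 2 arrays are therefore given separately below.

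The genes named next had the smallest unadjusted p in each direction, 6 higher and 6 lower, with 1 probe set for each gene. They are given as values only, since each had an adjusted p of 0.999 in limma. Values stand in the order wild type replicate 1, wild type replicate 2, transgenic replicate 1 and transgenic replicate 2. In bulk muscle, fewer cells of a type and less RNA per cell cannot be told apart for any of them.

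Rrad encodes a small Ras-like GTPase of muscle that restrains voltage-gated calcium channels. It read 200, 143, 181 and 222 at 7 months and 683, 377, 752 and 338 at 10 months. All 4 arrays at 10 months lay above all 4 at 7 months, with the replicate 1 arrays highest. The log2 change was 1.25 ± 0.25 (estimate ± SE), and its unadjusted p in limma was 0.00032. The pairs of the same genotype and number gave 1.55, 1.14, 1.80 and 0.51.

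Scd1 encodes the desaturase that makes monounsaturated fatty acids. Its signals were 949, 1023, 921 and 1187 at 7 months and 1842, 2588, 1908 and 1599 at 10 months, again without overlap. The log2 change was 0.91 ± 0.19. A second probe set for Scd1, at 444, 440, 642 and 633 and then 1618, 1311, 873 and 1073, gave 1.09 ± 0.24. Both probe sets were thus higher at 10 months in each of the 4 pairs.

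Entpd2, an ectoenzyme that breaks down extracellular ATP, read 182, 297, 376 and 340 at 7 months and 496, 912, 575 and 570 at 10 months (log2 change 0.98 ± 0.25). Wsb1, a substrate receptor of a ubiquitin ligase, read 184, 106, 215 and 61.5 and then 336, 245, 360 and 282 (0.96 ± 0.25). Rgs10, which switches off G protein alpha subunits, read 117, 54.2, 35.3 and 93.8 and then 193, 360, 182 and 183 (1.16 ± 0.31). None of these 3 overlapped between the ages, and the 10-month range of Rgs10 was set by 1 wild-type array. Most 7-month signals of Rgs10 and 1 of Wsb1 lay under 100, where the constant added before the log weighs on the log2 change. Klf6, a zinc finger transcription factor of the early response, read 979, 472, 815 and 435 and then 1408, 778, 1298 and 858 (0.68 ± 0.18). The ages overlapped for Klf6, because the replicate 1 arrays lay above the replicate 2 arrays at both ages, but all 4 pairs were higher at 10 months.

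Among the genes lower at 10 months, Snrpd3, a core protein of the splicing particles, read 679, 229, 672 and 590 at 7 months and 226, 139, 488 and 216 at 10 months (-0.91 ± 0.24). Ago2, the Argonaute protein that cuts RNA guided by small RNAs, read 1435, 439, 1251 and 1247 and then 467, 447, 410 and 519 (-1.05 ± 0.29). In both genes the replicate 2 array of wild type at 7 months stood far below the other 7-month arrays. For Ago2 that array was slightly below its 10-month partner, so 3 of 4 pairs were lower at 10 months.

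Sp1, a transcription factor that binds GC-rich promoters, read 585, 623, 749 and 1066 at 7 months and 377, 443, 446 and 494 at 10 months (-0.69 ± 0.20). Gpsm3, a modulator of G protein signalling, read 383, 226, 217 and 240 and then 89.4, 132, 35.4 and 166 (-1.08 ± 0.32). The ages did not overlap for these 2 genes. Several of the 10-month signals of Gpsm3 lay under 100, where the constant added before the log weighs on the log2 change.

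Cln8 and Pycrl were the most uneven of the 12 between genotypes. Cln8 encodes a membrane protein of the endoplasmic reticulum that is needed for lysosomal enzyme export and is mutated in a childhood neurodegeneration. It read 357 and 447 in wild type at 7 months and 74.5 and 61.0 at 10 months. In transgenic muscle it read 452 and 615 and then 417 and 346. The log2 change was -1.94 ± 0.34 in wild type and -0.43 ± 0.34 in transgenic muscle, and the interaction had an adjusted p of 1 in limma. Pycrl, an enzyme of proline synthesis, went the other way about, with -0.54 ± 0.39 in wild type and -1.72 ± 0.39 in transgenic muscle, where it read 324 and 230 at 7 months and 51.9 and 44.2 at 10 months. Its interaction also had an adjusted p of 1, so a difference between genotypes was not shown for either gene.

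**Figure D2:**
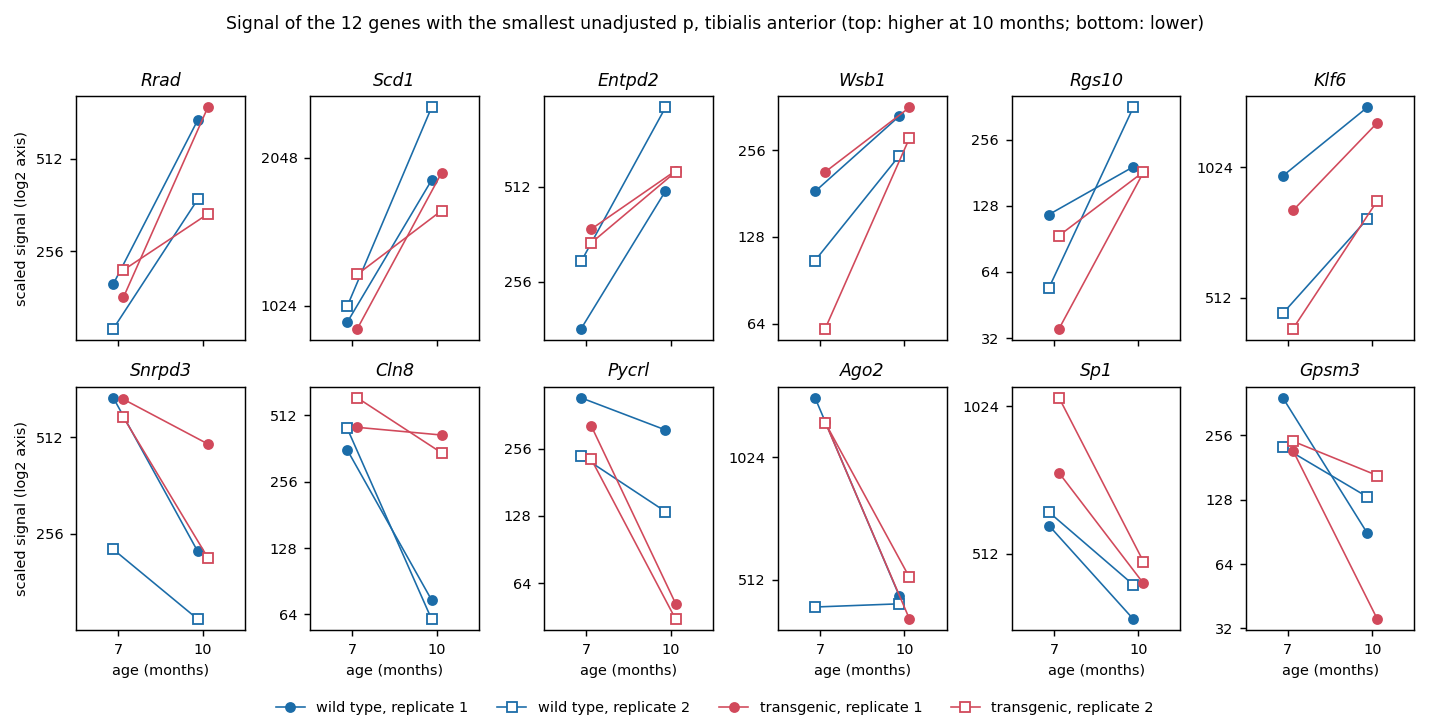
Scaled signal (y axis, log2 scale) at 7 and 10 months (x axis) for the 6 genes with the smallest unadjusted p that were higher at 10 months (top) and the 6 that were lower (bottom). Lines join arrays of the same genotype and replicate number. Rrad read 143 to 222 at 7 months and 338 to 752 at 10 months. Cln8 at 10 months read 74.5 and 61.0 in wild type and 417 and 346 in transgenic muscle.

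Gene groups were described by 35 lists, of which 614 genes were on the array and 511 were tested. In 0 of the 35 lists did a member pass the test (0% of all probe sets passed), and 26 of the 511 members had an unadjusted p under 0.05, against 3.19% of all 5981 genes. The median change of a list lay within 0.2 on the log2 scale in all but 4 lists.

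**Figure D3:**
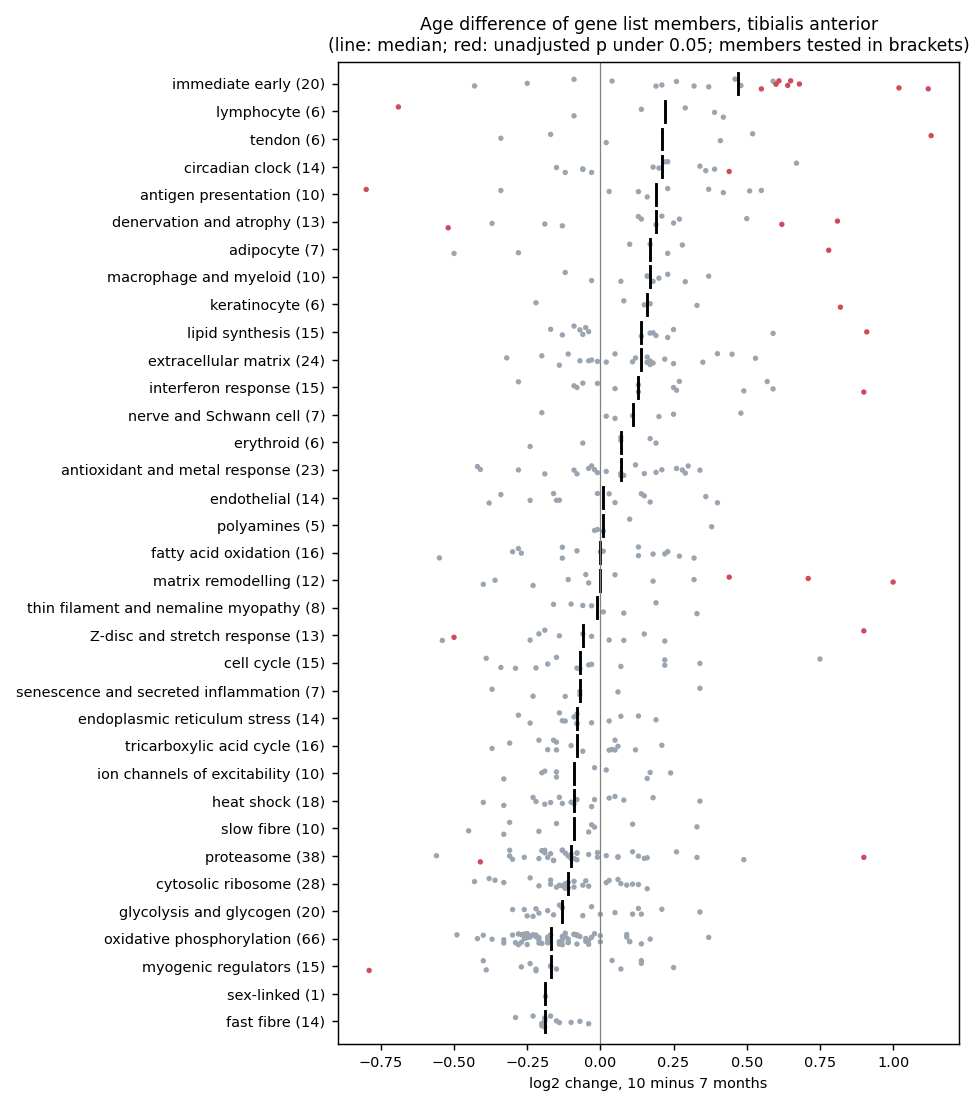
Log2 change from 7 to 10 months (x axis) of each tested member of 35 gene lists (y axis, members tested in brackets), with the median as a black line and members at an unadjusted p under 0.05 in red. The immediate early list has the highest median, 0.47, and the fast fibre list and the sex-linked list of 1 gene the lowest, -0.19.

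Immediate early genes had the highest median of the 35 lists. These genes code for transcription factors and feedback regulators that cells, muscle fibres among them, transcribe within minutes of a stimulus. The median change of the 20 tested members was 0.47, against 0.00 over all genes tested, and 17 of 20 lay above 0 against 49.9% of all genes. With an unadjusted p under 0.05, 8 members were higher and 0 lower, 40% of the list against 2.1% of all probe sets in that direction. None passed the adjusted test. The list was described with earlier results of these data known, and its members share stimuli, so the counts are not independent.

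Fos, a subunit of the AP-1 transcription factor, read 2925, 790, 1970 and 1967 at 7 months and 5147, 6584, 2407 and 2619 at 10 months. The 10-month wild-type arrays stood above the rest, and the log2 change was 1.89 ± 0.44 in wild type and 0.34 ± 0.44 in transgenic muscle. Atf3, a stress-induced factor, read 1966, 575, 715 and 782 and then 2702, 2360, 2144 and 892 (1.02 ± 0.28), and a second probe set of Atf3 gave 0.65 ± 0.26. Nr4a1, an orphan nuclear receptor induced by contraction, read 9251, 2369, 4824 and 4236 and then 9405, 4791, 10003 and 5410 (0.60 ± 0.24). The ages overlapped for all 3 of these genes.

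Fosb, a relative of Fos, was higher at 10 months in each pair, by 0.57, 0.48, 1.02 and 0.50, with a fitted change of 0.64 ± 0.21. Egr1, a zinc finger factor, gave 0.61 ± 0.23, Btg2, a restraint on proliferation, 0.65 ± 0.23, and Cebpb, a leucine zipper factor, 0.55 ± 0.24. The members with the highest signals besides Nr4a1 were Jund, at 0.04 ± 0.21, and Dusp1, a phosphatase that switches off MAP kinases, at 0.37 ± 0.20. Jun, Fosl2 and Zfp36 lay below 0, at -0.25, -0.43 and -0.09. The median of the list was 0.30 and 0.61 in the wild-type pairs and 0.39 and 0.26 in the transgenic pairs. In gastrocnemius the same list had a median of -0.06 and in diaphragm 0.41.

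The count of 8 depended on single arrays and on the model. It was 5 without the replicate 2 array of wild type at 7 months, on which Fos, Atf3 and Nr4a1 were lowest, and 3 without the replicate number in the model. The median stayed between 0.28 and 0.60 over the alternatives run. The summed signal of the list was 23743 to 42261 at 7 months and 37356 to 51031 at 10 months, so the ages overlapped. Clock genes had a median of 0.21 over 14 members. Bhlhe40, a repressor within the clock, read 2236, 1047, 2143 and 1061 and then 3150, 1375, 3141 and 1361 (0.44 ± 0.16), with the replicate numbers further apart than the ages. Per1, a core clock repressor, gave 0.67 ± 0.33 and Nr1d2, another one, 0.39 ± 0.25.

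**Figure D4:**
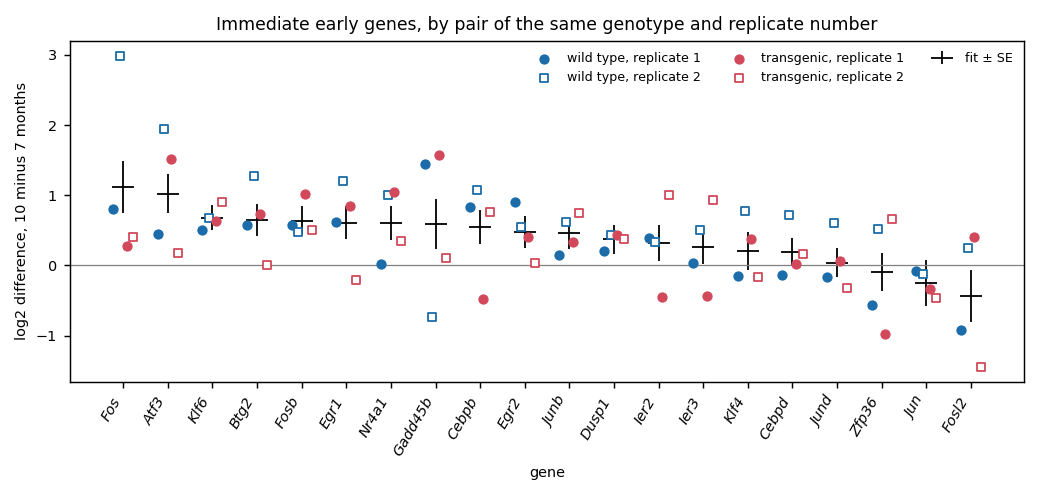
Log2 difference between 10 and 7 months (y axis) for the 20 tested immediate early genes (x axis), with 1 symbol for each pair of the same genotype and replicate number and the fitted change ± SE in black. Of the 20 fitted changes 17 lie above 0, and Fos spans 0.28 to 2.98 between pairs.

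Genes of the contractile apparatus showed small differences. The fast fibre list, which holds sarcomere and calcium-handling genes of fast fibres, had a median of -0.19 and 0 of 14 members above 0, with 0 members at an unadjusted p under 0.05. Myl1, the fast alkali light chain, gave -0.29 ± 0.18, Atp2a1, the calcium pump of fast fibres, -0.17 ± 0.18, and Pvalb -0.19 ± 0.18. Myh4 gave -0.10 ± 0.19, reading 51278, 43068, 35649 and 52089 at 7 months and 46711, 58637, 34292 and 32935 at 10 months. Each of these changes was smaller than 2 SE. In all 4 pairs 4 of the 14 members were lower at 10 months, against 5.26% of all probe sets. Oxidative phosphorylation genes, which encode the respiratory chain and ATP synthase, had a like median of -0.17, with 7 of 66 members above 0 and 0 at an unadjusted p under 0.05. Their median was -0.04 in wild type and -0.26 in transgenic muscle, with 42 and 57 of 66 estimates below 0. Of their interactions 0 had an unadjusted p under 0.05. The respiratory chain genes with the highest signals gave -0.21 ± 0.16 (Ndufb5), -0.00 ± 0.17 (Cox6a2) and -0.25 ± 0.20 (Cyc1). Glycolysis genes had a median of -0.13, with Aldoa, the muscle aldolase, at -0.25 ± 0.19 and Eno3, the muscle enolase, at -0.26 ± 0.16. The median over all genes was 0.00. Dimmer probe sets of Myh4, Pvalb and Cyc1 gave 0.06 ± 0.24, 0.08 ± 0.18 and 0.08 ± 0.20, so the sign of these 3 genes depended on the probe set.

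Slow fibre genes had estimates of opposite sign in the 2 genotypes, and none passed the test of the difference. Their median change was -0.09 over both genotypes, -0.40 in wild type and 0.21 in transgenic muscle. Over all genes tested the median was -0.01 in wild type and 0.02 in transgenic muscle. In wild type all 10 members had an estimate below 0, and in transgenic muscle 8 of 10 lay above 0. For all 10 the transgenic estimate exceeded the wild-type one, and 2 of 10 interactions had an unadjusted p under 0.05, against 2.06% of all probe sets. The 10 genes were read on the same arrays, 2 for each genotype and age, so these counts are not independent. The summed signal of the 10 genes was 8412 and 7330 in wild type at 7 months and 6331 and 5417 at 10 months. In transgenic muscle it was 19403 and 22127 at 7 months and 31552 and 19992 at 10 months. The sums did not overlap between the ages in wild type, while in transgenic muscle the 10-month arrays lay on either side of one 7-month array. With 2 arrays against 2, a lack of overlap arises easily by chance and carries little weight.

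Myh7, the slow myosin heavy chain, read 795 and 384 in wild type at 7 months and 208 and 173 at 10 months. In transgenic muscle it read 2654 and 2933 and then 5660 and 3564. The log2 change was -1.34 ± 0.32 in wild type and 0.68 ± 0.32 in transgenic muscle, a difference of 2.01 ± 0.45 with an unadjusted p of 0.00097 and an adjusted p of 1 in limma. The suffix of its probe set marks probes shared within a gene family, so other myosin heavy chains may contribute to it. Myl2, the slow regulatory light chain, read 723 and 796 and then 474 and 283 in wild type, against 4731 and 5822 and then 7316 and 4020 in transgenic muscle. Its change was -0.95 ± 0.33 in wild type and 0.05 ± 0.33 in transgenic muscle. Atp2a2, the calcium pump of slow fibres, gave -0.65 ± 0.34 and 0.56 ± 0.34. Tnnt1, slow troponin T, gave -0.40 ± 0.36 and 0.35 ± 0.36, and its transgenic pairs disagreed in sign, at 1.07 and -0.38. A dimmer probe set of Tnnt1 gave -0.24 in wild type and -0.01 in transgenic muscle. The transgenic replicate 1 array at 10 months had the highest signal of the 8 for Myh7, Myl2, Tnnt1 and Tpm3.

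**Figure D5:**
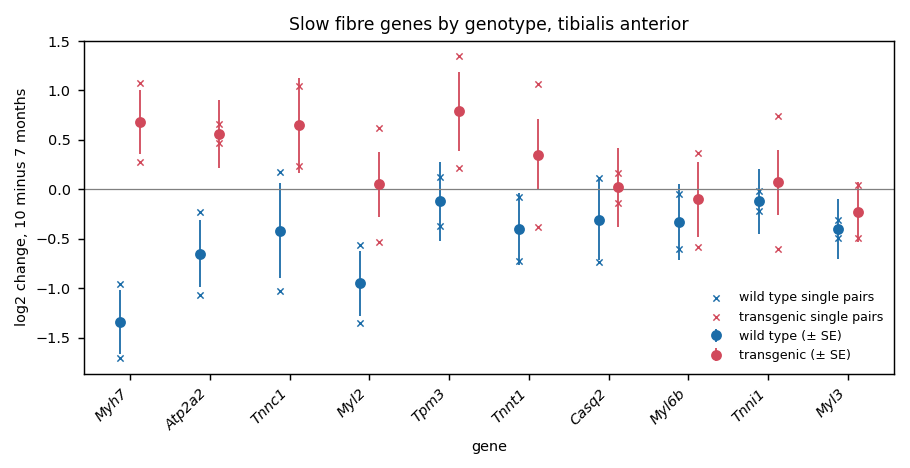
Log2 change from 7 to 10 months (y axis) of the 10 tested slow fibre genes (x axis) in wild type (blue) and transgenic muscle (red), as estimate ± SE with the 2 single pairs as crosses. All 10 wild-type estimates lie below 0, from -1.34 for Myh7, and 8 of 10 transgenic estimates lie above 0.

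The tropomyosin genes, which code for the rods that gate myosin binding along the thin filament, did not pass the test. Tpm3 read 1088, 1904, 1607 and 2165 at 7 months and 831, 2083, 4182 and 2538 at 10 months, a log2 change of 0.33 ± 0.30 with a 95% interval from -0.32 to 0.98. The interval leaves room for a rise of nearly 1 on the log2 scale as well as for a small decrease. Tpm2, the beta tropomyosin, gave 0.01 ± 0.17, Tpm1, the fast alpha tropomyosin, -0.06 ± 0.25, and Tpm4, a cytoskeletal form, 0.08 ± 0.21. The Tpm1 probe set was dim, with a mean signal of 509 against 15520 for Tpm2. Which Tpm1 transcripts it reads was not tested. The thin filament list had a median of -0.01, with Acta1, skeletal actin, at -0.10 ± 0.21. In the Z-disc and stretch response list, with a median of -0.06, 2 of 13 members had an unadjusted p under 0.05, against 3.19% of all genes. Ankrd1, a stretch-responsive adaptor, read 665, 365, 524 and 1226 and then 860, 588, 3175 and 1372 (0.90 ± 0.34). Actn2, the alpha-actinin of all fibres, read 547, 426, 617 and 399 and then 319, 292, 373 and 353 (-0.50 ± 0.20). Actn2 did not overlap between the ages, and for Ankrd1 1 transgenic array lay far above the other 7.

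Genes linked to loss of nerve supply showed no shared direction, with a median of 0.19 and 9 of 13 members above 0. Chrna1, the alpha subunit of the acetylcholine receptor, read 106, 143, 144 and 137 at 7 months and 280, 353, 263 and 199 at 10 months, without overlap (0.81 ± 0.25). Chrne, the adult epsilon subunit, read 533, 1388, 401 and 656 and then 345, 1004, 251 and 458 (-0.52 ± 0.21). A second, dimmer probe set of Chrne gave the opposite sign, 0.51 ± 0.34, so the array gives no settled direction for it. Gadd45a, a stress gene induced by denervation, gave 1.15 ± 0.32 in wild type and 0.10 ± 0.32 in transgenic muscle. Chrnd, Chrng, Musk and Runx1, which also respond to denervation, stayed below the signal filter. Among myogenic regulators, with a median of -0.17, Pax3 gave -0.79 ± 0.35 at signals near 100, and Mef2d, the brightest, 0.14 ± 0.17. Senescence and secreted inflammation genes, a textbook companion of ageing, had 8 of 15 members below the filter and a median of -0.07 over the other 7, with Cdkn1a, a cell cycle inhibitor, at -0.37 ± 0.25 on one probe set and 0.20 ± 0.27 on another.

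The extracellular matrix list had a median of 0.14, 16 of 24 members above 0 and 0 at an unadjusted p under 0.05. Dcn, the proteoglycan decorin, gave 0.18 ± 0.16 and Col1a1, the main fibrillar collagen, -0.07 ± 0.36 on one probe set and 0.16 ± 0.22 on another. Of 12 matrix remodelling genes 3 had an unadjusted p under 0.05, all higher at 10 months, against 2.1% of all probe sets in that direction. These were Loxl1, a collagen and elastin cross-linking oxidase, with a 95% interval of its log2 change from 0.29 to 1.71, Ccn2, a matricellular growth factor, at 0.71 ± 0.27, and Mmp14, a membrane collagenase, at 0.44 ± 0.20. In metabolism of lipids, the 15 genes of synthesis had a median of 0.14 with Scd1 as the 1 member at an unadjusted p under 0.05, and fatty acid oxidation genes had a median of 0.00.

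Markers of other cell types varied between arrays. The adipocyte list had a median of 0.17 over 7 of 11 genes and a summed signal of 15875 to 22483 at 7 months and 17985 to 24349 at 10 months. Adipoq, the fat cell hormone adiponectin, read 267, 275, 130 and 372 and then 278, 796, 411 and 490 (0.78 ± 0.26), Retn stayed below the filter, and the array has no probe set named Cfd or Plin1. Adipoq had the highest change of the 7 tested members, of which 5 lay above 0. The members below 0 were Lipe, at -0.50 ± 0.31, and Cidea, at -0.28 ± 0.34. The list median was 0.37 in wild type and -0.11 in transgenic muscle. Fat cells also express Scd1, and their part in its values was not tested. The tendon list had a median of 0.21 over 6 genes and summed to 1207 to 6517 at 7 months and 3806 to 6339 at 10 months. Fmod, a tendon proteoglycan, read 411, 1988, 492 and 2020 and then 3186, 1197, 2098 and 2704, and Scx, a tendon transcription factor, 491, 2822, 203 and 2018 and then 933, 2070, 638 and 2377. For both genes the low 7-month arrays were those of replicate 1, and the pairs of Fmod gave 2.81, -0.71, 1.99 and 0.41.

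Macrophage and myeloid markers had a median of 0.17 over 10 of 19 genes and summed to 3303 to 5872 at 7 months and 4260 to 7155 at 10 months, with Adgre1 below the filter. Lymphocyte markers had a median of 0.22 over 6 of 15 genes and sums of 2086 to 3958 and 2556 to 4648, with Cd3e below the filter and Cd4 at -0.69 ± 0.30. Endothelial markers had a median of 0.01, erythroid markers 0.07 and nerve and Schwann cell markers 0.11. Keratinocyte markers had a median of 0.16 over 6 of 12 genes, with Krt14 and Krt5 below the filter. Dsp, a desmosome protein of that list, read 81.7, 100, 60.3 and 194 and then 53.9, 137, 345 and 628, so that only the transgenic 10-month arrays were above 200. Antigen presentation genes had a median of 0.45 in wild type and -0.07 in transgenic muscle. Of the sex-linked genes Xist alone was tested, at 164 to 606 at 7 months and 222 to 322 at 10 months, and the Y-linked genes on the array stayed below the filter.

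The remaining lists had medians within 0.2 of 0 on the log2 scale. Median changes were 0.19 for antigen presentation, 0.13 for interferon response, 0.07 for antioxidant and metal response, 0.01 for polyamines, -0.07 for the cell cycle, -0.08 for endoplasmic reticulum stress and the tricarboxylic acid cycle, -0.09 for heat shock and ion channels, -0.10 for the proteasome and -0.11 for the cytosolic ribosome. In the antigen presentation list H2-K1 gave 0.37 ± 0.19, H2-D1 0.16 ± 0.22 and H2-Eb1 -0.80 ± 0.34. Dimmer probe sets gave 0.33 ± 0.23 and 0.57 ± 0.25 for H2-K1, and 0.55 ± 0.22 and 0.55 ± 0.24 for H2-D1. None of these passed the adjusted test. In the proteasome list Psmb9, an immunoproteasome subunit induced by interferon, gave 0.90 ± 0.30 at a mean signal of 188, and Psmd7, a lid subunit, -0.41 ± 0.17. Psmb8 and Psmb10, which like Psmb9 were also in the interferon response list, gave 0.26 ± 0.29 and -0.09 ± 0.19.

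Taken within each genotype, the age comparison also gave 0 calls in limma. In wild type 229 probe sets (2.88%) had an unadjusted p under 0.05 and the lowest adjusted p was 0.625. In transgenic muscle there were 172 (2.16%). The test of the difference between genotypes had 0 calls (0%) and 164 probe sets (2.06%) at that level. With 1 probe set for each gene, the smallest p in wild type besides that of Cln8 belonged to Peg3, an imprinted zinc finger gene, at 649 and 190 and then 1494 and 858, and to Tec, a tyrosine kinase, at 63.8 and 24.1 and then 316 and 309. In transgenic muscle Peg3 read 1355 and 699 and then 1329 and 788, and Tec 273 and 223 and then 227 and 88.8. For both genes the 2 wild-type arrays at 7 months were the lowest of the 8. The wild-type log2 change of Peg3 was 1.53 ± 0.31 on this probe set, and the dimmer 2 probe sets of Peg3 gave -0.19 ± 0.45 and 0.21 ± 0.33. The second probe set of Scd1 gave 1.61 ± 0.29 in wild type, with an adjusted p of 0.625 in limma. In transgenic muscle the smallest p besides Pycrl belonged to Taf1b, a subunit of an RNA polymerase I initiation factor, at 207 and 69.9 and then 581 and 404, and to Ly6d, a surface antigen, at 86.0 and 72.8 and then 306 and 382.

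With 1 probe set for each gene, the smallest p of the interaction belonged to H2-DMa, which helps to load class II histocompatibility molecules. It read 110 and 201 and then 349 and 881 in wild type, against 449 and 960 and then 195 and 656 in transgenic muscle, a difference of -2.38 ± 0.47 with an adjusted p of 1 in limma. A second probe set for H2-DMa did not show this pattern, at 91.3 and 155 and then 92.6 and 127 in wild type and 79.2 and 147 and then 134 and 113 in transgenic muscle. Tec and Myh7 followed.

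Whether the age difference of the tibialis anterior differed from that of other muscles was tested against gastrocnemius, a calf muscle, and diaphragm, the main muscle of breathing, each with 8 arrays of the same genotypes and ages. Neither test gave a call in limma (0% of 7954). Against gastrocnemius 170 probe sets (2.14%) and against diaphragm 306 (3.85%) had an unadjusted p under 0.05. With 1 probe set for each gene, Scd1 had one of the smallest p against gastrocnemius, with a log2 change of 0.91 in tibialis anterior and -0.66 in gastrocnemius, a difference of 1.57 ± 0.45. Hdhd5 gave 0.56 in tibialis anterior and -0.79 in gastrocnemius, a difference of 1.35 ± 0.38. Tkt, an enzyme of the pentose phosphate pathway, gave 0.57 and -0.83 in these muscles, a difference of 1.40 ± 0.40. Against diaphragm the smallest p among these probe sets belonged to Mfn1, which fuses mitochondria, with -0.35 in tibialis anterior and 0.72 in diaphragm, a difference of -1.07 ± 0.25. Mfn1 itself read 5265, 4900, 4561 and 4240 at 7 months and 4128, 3247, 3560 and 3961 at 10 months, without overlap. A second, dimmer probe set of Mfn1 gave -0.12 and 0.24 in the same muscles, a difference of -0.37 ± 0.31. Saysd1 gave 0.30 in tibialis anterior and -0.94 in diaphragm, a difference of 1.24 ± 0.31. Agt, the angiotensin precursor, gave 0.99 in tibialis anterior and -1.87 in diaphragm, a difference of 2.86 ± 0.77. Its tibialis anterior signals at 10 months of 439, 66.7, 1120 and 35.2 were high on the replicate 1 arrays alone. Rrad gave -0.07 in gastrocnemius and 0.20 in diaphragm, and the differences of 1.32 ± 0.39 and 1.05 ± 0.39 had adjusted p of 1 and 0.999 in limma.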

How the data were processed

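Per the submitters' processing notes the deposited values are MAS5 signal intensities, whose version is not given in the sources used here. Deposited intensity values of the 8 arrays ran from 0.7 to 218662.4 with trimmed means of 1500.93 to 1501.29, so the authors had scaled them to a shared target. Per the labels 8 micrograms of RNA were labelled for each array. Each deposited column matched a sample label (0 columns were left over).

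After rescaling of every array to a target of 500 (2% trimmed), log2(signal + 50) was fitted in limma 3.58.1 (R 4.3.3) with an intensity trend in the moderated variance. The 66 control probe sets were left out. Benjamini-Hochberg adjustment ran over 7954 probe sets, of which 7135 had 1 gene symbol, 282 several and 537 none, from the array's annotation. Of all probe sets with 1 symbol, 10817 of 10833 matched the reference table. The main model held age, genotype and replicate number. Genotype-specific effects came from 4 group means with replicate number, and muscle differences from 24 arrays of tibialis anterior, gastrocnemius and diaphragm. Arrays have no read depth, and their number limits the precision (4 residual degrees of freedom). The model was tested on simulated data.

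Replicate number was in the model because the comparison was defined with genotype and replicate number as covariates. Deviations of same-numbered arrays correlated at 0.198 to 0.468 in all 6 pairs of groups. The labels do not say what arrays of the same number share, so reading them as pairs rests on these correlations. The brightest tested probe set stood for a gene. Named genes were the 6 with the smallest unadjusted p in each direction, the 3 smallest in the other comparisons and the 3 brightest of each list (part of which are printed), since none passed the threshold. The tropomyosin and sex-linked genes were always named. Other list members (those at an unadjusted p under 0.05 and the rest given above) were chosen after their values were seen. The comparison and the lists were chosen with earlier results of these data known. Alternatives covered the replicate term, the constant added, the filter, normalization, array weights, trend, more muscles, scan day and single arrays.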

Additional observations from a re-analysis of the deposited data

Results flagged for a closer look

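In 298 groups of 4 arrays (each named gene at each age), the highest or lowest array was tested against the other 3 by Dixon's criterion, which chance exceeds in about 1 in 20 groups of like arrays, and 20 exceeded it. Each group mixed genotypes and replicate numbers, and the genes shared the arrays, so that rate is a rough guide only. The replicate 2 array of wild type at 10 months was the array in 7 of the 20. It was highest for Rgs10 (signal 360) and for the complement genes C1qb (1773) and C1qc (1146), and lowest for Myl3 (1219), Mef2a (1131), Ifi27 (947) and Cacna1s (3811). The replicate 2 array of wild type at 7 months was lowest for Snrpd3 (229), Ago2 (439), Egr1 (445), Oaz2 (1581) and Azin1 (629). Among the other arrays, wild type replicate 1 at 10 months was highest for Me1 (2403). Transgenic replicate 1 was lowest for Cd14 (352) and highest for Cdh5 (1699) at 7 months, and lowest for Tef (2039) and Psmb9 (103) at 10 months. Transgenic replicate 2 was highest for H2-D1 (4948) and lowest for Hba-a1 (10965) at 7 months, and highest for H2-Eb1 (365) at 10 months.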

How the results depend on the processing

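Age gave 0 calls in 20 of 22 alternative settings. The exceptions were replicate number 2 only, with 1 call (Gtf2f2, a subunit of transcription factor TFIIF, log2 change -2.05, adjusted p = 0.0478 in limma), and scan day as a block, with 2 calls (Gtf2f2 and a second probe set of Cdk5rap3, both -2.05). In the main model these 2 probe sets gave -1.07 and -0.98, and the brighter probe set of Cdk5rap3 gave -0.19 ± 0.21. Since each recorded array has a scan day of its own, that block leaves the comparison to the replicate 2 arrays. On all 36 arrays with scan day as a block, an alternative added after the data were seen, there were 0 calls and the lowest adjusted p was 0.0535. Without the replicate block there were 0 calls for age, and the number at an unadjusted p under 0.05 was 115, against 270 with it. That number reached 638 at most over the settings. Leaving out single arrays gave 0 calls for age, with 197 to 504 at an unadjusted p under 0.05, the latter without the replicate 1 array of wild type at 10 months. For age in wild type it gave 0 to 1 calls. The 1 call, without the replicate 1 array of wild type at 10 months, was a probe set with no gene symbol (3.54, adjusted p = 0.0374, against 1.40 in the main model). The other comparisons had 0 calls in every setting run, without the replicate block included. All 12 genes named for age kept their direction in the settings that gave them a value, as did 49 of the 116 other named genes and the medians of 15 of 35 lists. The 12 were chosen for their smallest p on these same arrays, so their kept direction is no separate evidence. Their count cannot be set against that of the other genes, most of which were chosen on other grounds. Rrad ranged from 0.83 to 1.67 and Scd1 from 0.78 to 1.07, while Fmod ranged from -0.15 to 2.40. Signals under 100 limit the size of changes in dim probe sets.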

Other observations

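The smallest unadjusted p of all probe sets belonged to a probe set of Klf13, a zinc finger transcription factor, which is not the brighter one that represents the gene. It read 116 ± 25.5 at 7 months and 366 ± 130 at 10 months (mean ± SD, n = 4 each), a log2 change of 1.29 ± 0.26. The brighter probe set of Klf13 gave 0.08 ± 0.20. The same held for Mroh1, with 1.27 ± 0.29 on a dim probe set and -0.19 ± 0.19 on the brighter one, and for Wnk1, a kinase that regulates ion transport, with -1.27 ± 0.33 on one probe set, -0.54 ± 0.32 on another and 0.13 ± 0.21 on the brightest.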
